A study of Caenorhabditis elegans with 11 samples.

Results

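The col genes of Caenorhabditis elegans encode collagens, most of them of the cuticle, and they form the largest named collagen group of this nematode. Here they were taken as the probe sets that carry a single gene symbol made of "col-" and a number. There were 151 such genes among 26761 probe sets with a gene symbol, and all 151 were matched to a RefSeq gene by the gene identifier. The RefSeq table lists 159 col genes. The other 8 had no probe set of their own, and 2 of these, col-117 and col-3, shared one.

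Cuticle collagens are short collagens with Gly-X-Y repeats that the hypodermis secretes and crosslinks into the exoskeleton. A new cuticle is made before each moult, and the collagen genes are switched on in waves within each moulting cycle, some of them only at a given stage, so that larva, dauer and adult wear cuticles of different composition. Sequences of many members are alike, and probe sets of close relatives such as col-12 and col-13, whose products are nearly identical, may share signal.

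RNA of whole JK1466 animals was hybridised to C. elegans Gene 1.1 ST arrays. The groups were a water control (2 arrays, trials 1 and 2), L-tryptophan-betaxanthin, its methyl ester and its benzyl ester (3 arrays each, trials 1 to 3), betaxanthins being yellow plant pigments. Each compound was given at 25 µM for 48 h at 20 °C to larvae that had hatched 16 to 18 h earlier. The animals of all groups were labelled as L4 larvae or young adults, with an age of 2 days. The question was how the lead compound and its esters alter expression in the same tumour model.

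JK1466 carries gld-1(q485), a mutation of a germline tumour suppressor gene, over a chromosome marked with dpy-5(e61) and unc-13(e51), so dpy-5, itself a cuticle collagen gene, can be mutant in such animals. All groups, controls included, carried this genotype and ate bacteria that knock down gld-1. Since the RNA came from whole animals, fewer cells of a type and less RNA per cell cannot be told apart. No pair of arrays was identical, the lowest correlation between arrays was 0.960, and the log2 signal of gld-1 ran from 5.50 to 7.45, with no wild-type array here to compare it with. The hypodermis markers, from genes such as dpy-7 and rol-6, were above the median signal of the tested probe sets in all arrays. Arrays give no counts, and their number limits the precision.

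Most col genes were measured above the dim part of the array. The mean log2 signal of a col gene ran from 1.23 to 10.6, with a median of 5.11 against 2.28 over the tested probe sets, and 32 of 151 stayed below that median. Probes differ in how they bind, so signals of different probe sets do not rank RNA levels. The highest mean signals were those of col-12, col-73, col-154, col-81 and col-106. The signal of a col gene also varied more between arrays than that of other probe sets. Among those at or above the median signal, 42% of the col genes (50) had an SD over the 11 arrays above 0.5 log2 units, against 17.8% of the tested probe sets, and the median SD was 0.433 against 0.313. The 5 most variable were col-185, col-44, col-40, col-102 and col-37.

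**Figure D1:**
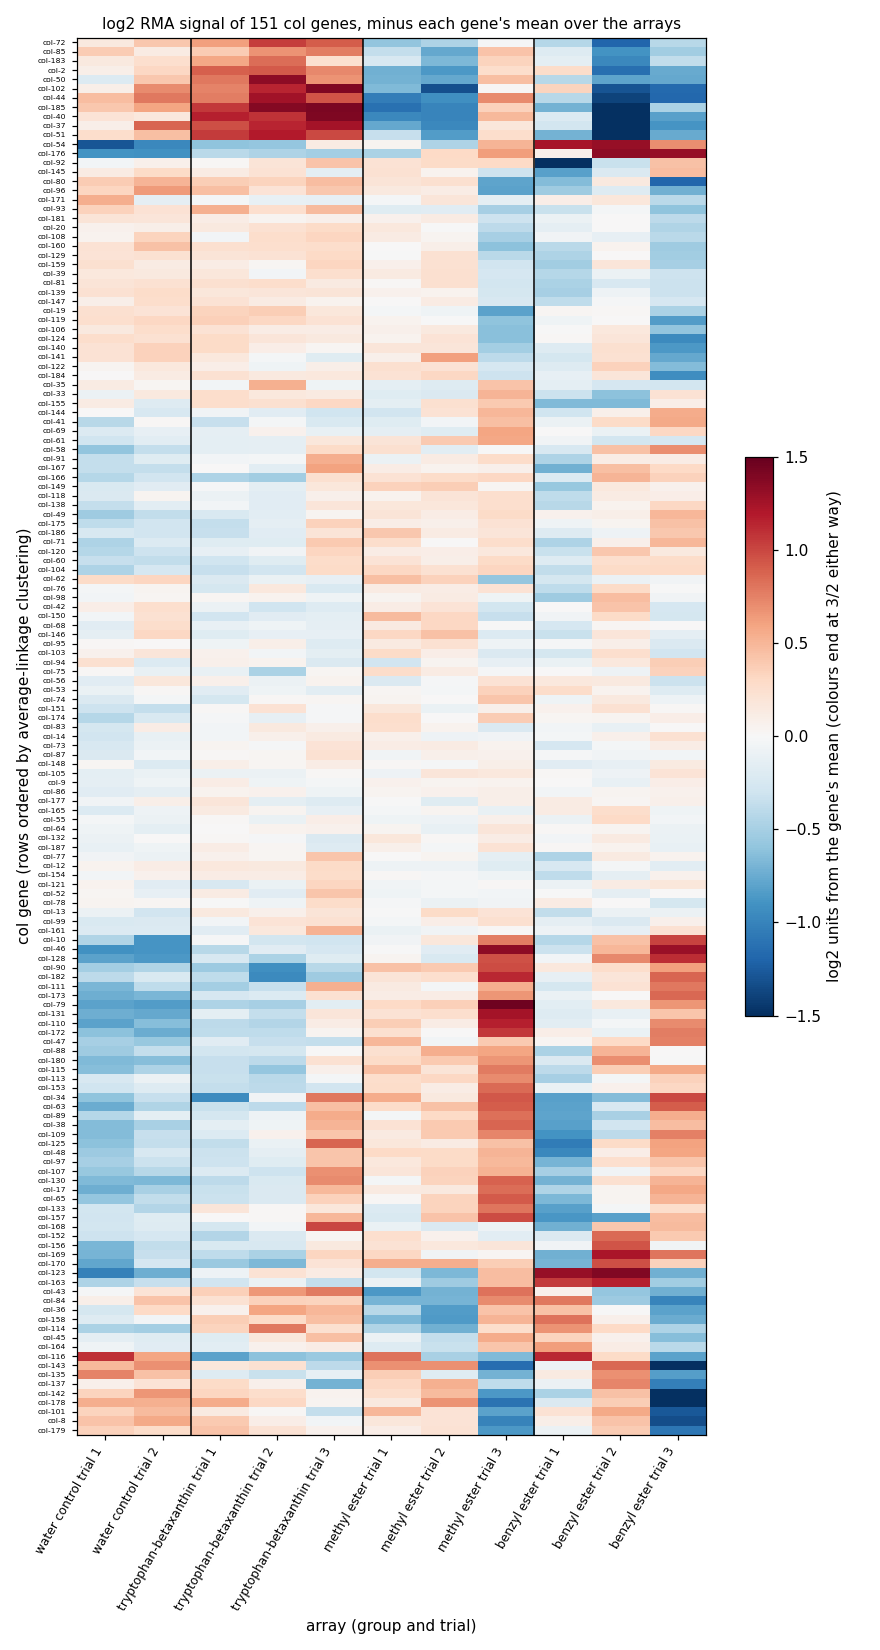
Heatmap of the log2 RMA signal of the 151 col genes (rows, ordered by average-linkage clustering) in the 11 arrays (columns, by group and trial), each gene shown relative to its own mean, with colours ending at ±1.5 log2 units. A block at the top with col-185, col-44 and col-40 is red with tryptophan-betaxanthin and mostly blue with both esters, and a block at the bottom with col-143 and col-178 is blue in the third trial of the esters.

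The family did not shift far as a whole. The median log2 difference of the col genes from the water control was 0.16 for tryptophan-betaxanthin, 0.16 for the methyl ester and 0.08 for the benzyl ester, against 0.01 over the tested probe sets in each case. With each gene taken relative to its own mean over the 11 arrays, the median of the col genes was -0.14 and -0.09 in the controls, -0.03, -0.02 and 0.17 with tryptophan-betaxanthin, 0.08, 0.10 and 0.21 with the methyl ester and -0.19, 0.07 and 0.00 with the benzyl ester. The tryptophan-betaxanthin and methyl ester arrays lay above both controls, while the first benzyl ester array lay below them. These medians varied within groups with an SD of 0.103, and the shifts of the family were not tested. Single members moved by far more, in both directions, between -1.62 and 2.20 log2 units with the benzyl ester.

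With tryptophan-betaxanthin, no col gene passed the adjusted threshold of 0.05 in limma's moderated test, where 0.00374% of the tested probe sets passed. At an unadjusted p under 0.05, 11 col genes were higher (7.28%, against 2.52% of the tested probe sets) and 1 was lower (0.662%, against 3.52%). The lower one was col-116. Its log2 signal was 4.12 and 3.61 in the controls and 2.21, 2.41 and 2.46 with tryptophan-betaxanthin, a difference of -1.50 (standard error 0.54, adjusted p = 0.74 from limma). The groups did not overlap, yet the ester arrays ranged from 2.21 to 4.15 and spanned both. Of the higher ones, col-40 had 4.36 and 4.31 in the controls and 5.31, 5.23 and 5.54 with the compound (difference 1.03, standard error 0.46, adjusted p = 0.822 from limma). The differences of col-114 and col-50 were 0.95 and 0.84 (adjusted p of 0.743 and 0.816 from limma). Fitted on the arrays of both groups alone, 9 col genes passed (5.96%), against 2.96% of the tested probe sets.

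With the methyl ester, the col genes were mostly above the control without passing the test. None passed the adjusted threshold in limma, where 0.258% of the tested probe sets did. At an unadjusted p under 0.05, 42 col genes were higher (27.8%) and 6 lower (3.97%), against 8.25% and 8.13% of the tested probe sets. The largest difference was that of col-79, with 5.41 and 5.38 in the controls and 6.51, 6.57 and 7.68 with the methyl ester, or 1.53 on the log2 scale (standard error 0.34, adjusted p = 0.133 from limma). Next was col-131, with 4.84 and 4.81 against 5.80, 5.83 and 6.83, a difference of 1.32 (standard error 0.31, adjusted p = 0.148 from limma). In both genes the third-trial array was the highest and all 3 arrays lay above the controls, which cover the first and second trials only. Within the first and the second trial the differences of col-79 were 1.10 and 1.19, and those of col-131 were 0.95 and 1.02. Without the third trial, 13 col genes passed (8.61%), against 2.3% of the tested probe sets.

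With the benzyl ester, col-54 was the 1 col gene that passed the adjusted threshold, a share of 0.662% against 0.564% of the tested probe sets. Its log2 signal was 3.82 and 4.14 in the controls and 6.35, 6.41 and 5.80 with the benzyl ester, 4.60-fold higher (log2 difference 2.20, standard error 0.32, adjusted p = 0.0181 from limma). The tryptophan-betaxanthin arrays, at 4.50, 4.52 and 5.23, and the methyl ester arrays, at 5.14, 4.64 and 5.61, lay between the controls and the benzyl ester. The call was lost without the first or the second control (adjusted p of 0.281 and 0.178 from limma), without the second benzyl ester array (0.0799) and with the arrays of both groups alone (0.0857).

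At an unadjusted p under 0.05, 25 col genes were higher with the benzyl ester (16.6%, against 8.21% of the tested probe sets) and 18 were lower (11.9%, against 7.07%). With each array scaled to a common median these were 20 and 22. That scaling also took the higher share of all tested probe sets past this p from 53.8% to 41.9%. Next to col-54 stood col-176 and col-123. The signal of col-176 was 1.84 and 1.82 in the controls and 2.81, 4.07 and 4.04 with the benzyl ester (difference 1.81, standard error 0.39, adjusted p = 0.0902 from limma), with control values under the median signal of 2.28. In col-123 the first and the second benzyl ester array, at 5.47 and 5.55, stood above the controls at 3.15 and 3.43, while the third, at 3.44, was level with them. Its difference was 1.53 (standard error 0.56, adjusted p = 0.248 from limma). The lower genes with the largest differences were col-44, col-185 and col-37, at -1.62, -1.53 and -1.40 log2 units (adjusted p of 0.173, 0.193 and 0.176 from limma). Without the third trial, 21 col genes passed against the control (13.9%), where 5.44% of the tested probe sets did.

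**Figure D2:**
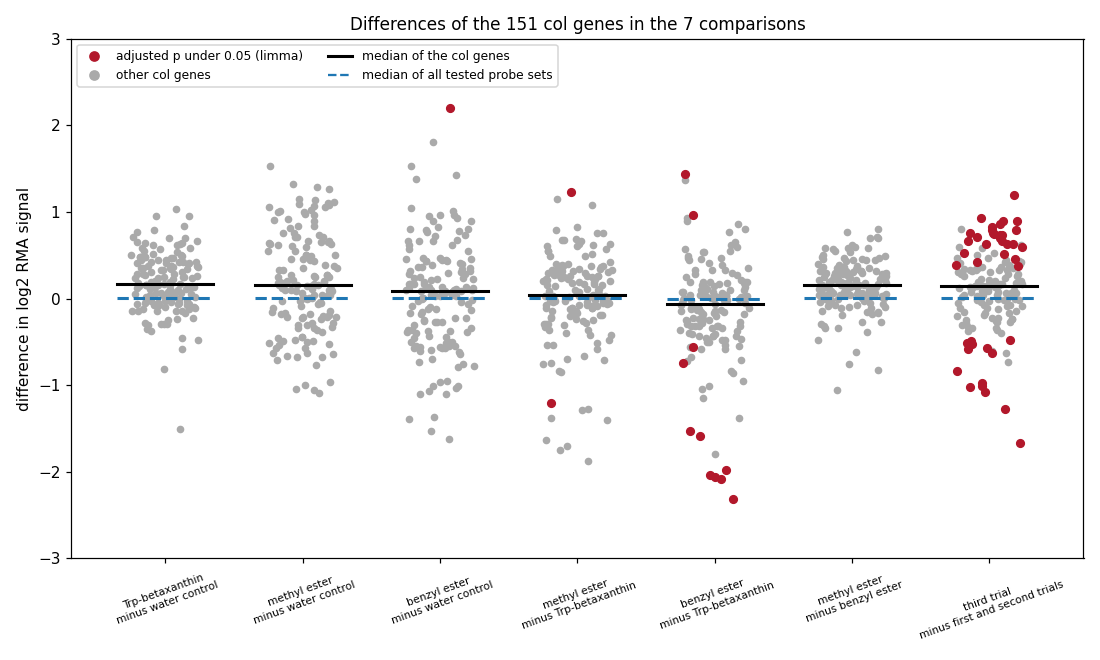
Difference in log2 RMA signal (vertical axis) of each of the 151 col genes in the 7 comparisons (horizontal axis), with genes past an adjusted p of 0.05 in limma in red, the median of the col genes as a black line and that of all tested probe sets as a dashed blue line. The medians stay near 0, and the red points lie mostly below 0 between the benzyl ester and tryptophan-betaxanthin and on both sides of 0 between the trials.

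The largest differences between the compounds were in a set of col genes that were lower with the esters than with tryptophan-betaxanthin. The esters differ from the lead compound by the group attached to the acid of the tryptophan part, methyl or benzyl, and the 3 pairs of compounds were compared at the same dose and time. Between the benzyl ester and tryptophan-betaxanthin, 11 of 151 col genes passed (7.28%, against 3.09% of the tested probe sets). Of these 9 were lower (5.96%, against 0.998%) and 2 were higher (1.32%, against 2.1%). The 9 fell in each of the 3 trials, and in none of them did the arrays of both groups overlap. Since they were selected on these same arrays, neither trait is separate support.

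The largest fall was in col-185. Its log2 signal was 5.55, 5.87 and 5.90 with tryptophan-betaxanthin and 3.78, 2.58 and 4.01 with the benzyl ester, 4.98-fold lower (log2 difference -2.32, standard error 0.43, adjusted p = 0.0305 from limma). The controls, at 4.89 and 5.08, lay between them. In col-51 the values were 4.59, 4.72 and 4.52 with tryptophan-betaxanthin and 2.82, 1.98 and 2.77 with the benzyl ester (difference -2.08, standard error 0.28, adjusted p = 0.0152 from limma). Next to it on the chromosome lies col-50, which had 4.35, 4.90 and 4.23 against 3.15, 2.77 and 2.78 (difference -1.59, standard error 0.33, adjusted p = 0.0357 from limma). In both, the controls again lay between the groups, at 3.80 and 3.99 for col-51 and at 3.35 and 3.96 for col-50.

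The same order of group means was seen in col-40, whose values with the benzyl ester were 3.94, 2.64 and 3.33 (difference from tryptophan-betaxanthin -2.06, standard error 0.41, adjusted p = 0.0334 from limma). For col-37 the tryptophan-betaxanthin arrays were at 7.29, 7.46 and 7.57 and the benzyl ester arrays at 6.04, 4.73 and 5.44 (difference -2.04, standard error 0.37, adjusted p = 0.0302 from limma). For col-44 they were at 5.66, 6.15 and 5.83 and at 4.47, 3.50 and 3.72 (difference -1.98, standard error 0.43, adjusted p = 0.0419 from limma). In col-37, col-44 and col-40 the second benzyl ester array was the lowest of the 11 arrays, and the controls stood below tryptophan-betaxanthin except for the second control of col-44, at 5.69. For col-72 the difference was -1.53 (standard error 0.23, adjusted p = 0.0183 from limma), with 4.42, 4.84 and 4.71 against 3.37, 2.61 and 3.39.

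The other 2 genes that fell, col-93 and col-81, are among the brighter members and changed less, by -0.74 and -0.56 log2 units (adjusted p of 0.0391 and 0.0486 from limma). They differ from the 7 above in that the control was level with tryptophan-betaxanthin. The signal of col-81 was 10.20 and 10.23 in the controls, 10.25, 10.27 and 10.14 with tryptophan-betaxanthin and 9.53, 9.77 and 9.68 with the benzyl ester. In the dauer collagen gene col-2 and in col-102 the group means had the order of the 7 genes, and neither passed. For col-2 the values were 9.31 and 9.53 in the controls, 10.12, 10.14 and 9.94 with tryptophan-betaxanthin, 8.50, 8.36 and 9.48 with the methyl and 9.50, 8.09 and 8.47 with the benzyl ester. The differences of col-2 from tryptophan-betaxanthin were -1.29 for the methyl and -1.38 for the benzyl ester (adjusted p of 0.0959 and 0.0721 from limma).

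The 2 genes that rose between tryptophan-betaxanthin and the benzyl ester were col-54, by 1.43 on the log2 scale (standard error 0.28, adjusted p = 0.033 from limma), and col-90, by 0.97 (standard error 0.19, adjusted p = 0.0329 from limma). The values of col-90 were 4.53 and 4.59 in the controls, 4.50, 4.12 and 4.62 with tryptophan-betaxanthin, 5.48, 5.43 and 6.01 with the methyl and 5.19, 5.30 and 5.65 with the benzyl ester. The ester arrays of col-90 all lay above the arrays of the other groups. The number of col genes that passed between the benzyl ester and tryptophan-betaxanthin was 0 without any 1 of the tryptophan-betaxanthin arrays and 2 without either control or without the second benzyl ester array. It was 6 when the first methyl ester array was left out and 22 when the third was, arrays which enter this comparison through the shared estimate of the spread.

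**Figure D3:**
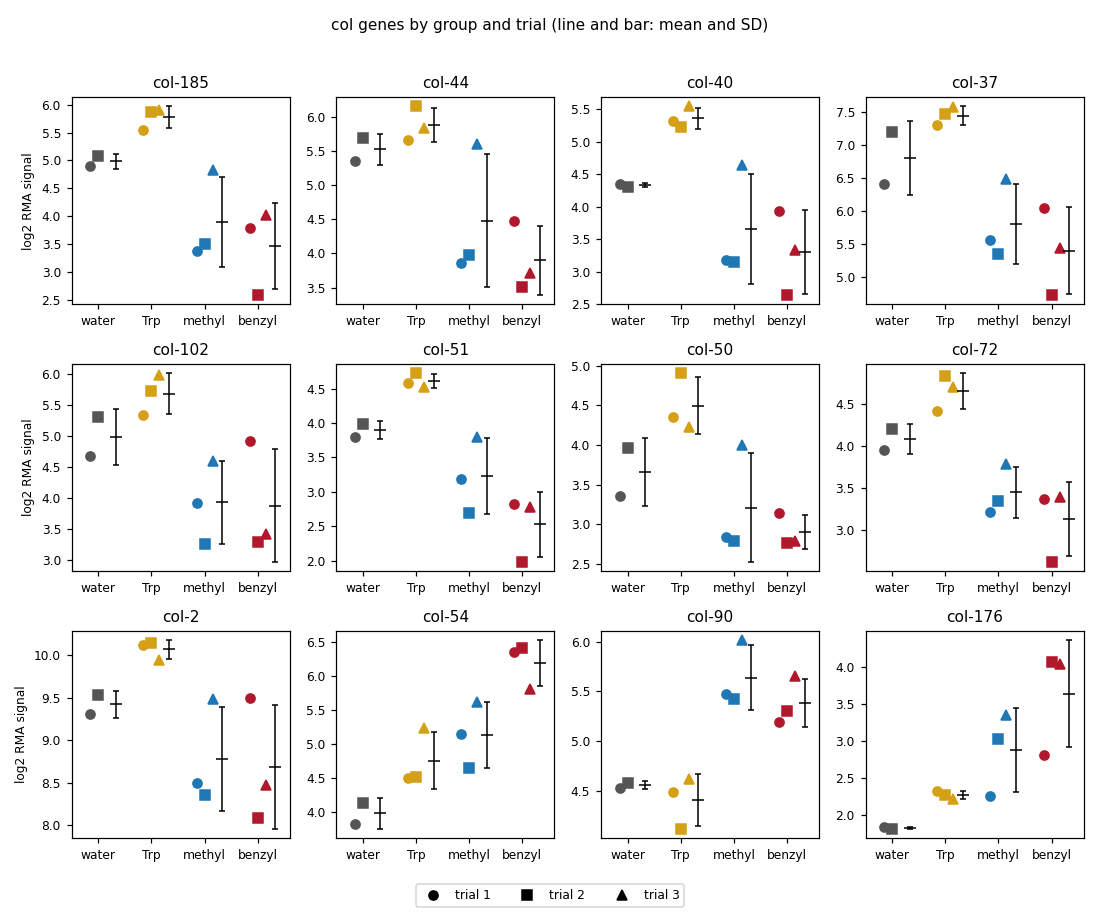
Log2 RMA signal (vertical axes, each with its own range) of 12 col genes by group (water control, tryptophan-betaxanthin as Trp, methyl ester, benzyl ester), 1 point for each array with the trial as its shape, and the group mean ± SD beside the points. In the first 9 panels, from col-185 to col-2, the tryptophan-betaxanthin arrays stand above the ester arrays, as for col-185 with 5.55 to 5.90 against 2.58 to 4.83, and in the panels of col-54 and col-90 the benzyl ester arrays stand above them.

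Between the methyl ester and tryptophan-betaxanthin, 2 of 151 col genes passed (1.32%, against 1.37% of the tested probe sets). These were col-90, higher by 1.23 on the log2 scale (standard error 0.19, adjusted p = 0.0241 from limma), and col-72, lower by 1.21 (log2 difference -1.21, standard error 0.23, adjusted p = 0.0424 from limma). With the trial as a block, 23 passed (15.2%, against 11.1% of the tested probe sets), 12 of them higher and 11 lower, col-185 (adjusted p = 0.013 from limma) and col-2 (0.0482) among the lower. Without the block, the differences of the genes that fell with the benzyl ester were -1.88 for col-185, -1.71 for col-40, -1.64 for col-37, -1.41 for col-44, -1.39 for col-51, -1.28 for col-50 and -0.70 for col-93, with adjusted p-values of 0.0508 to 0.112 from limma. That of col-81 was -0.22 (adjusted p = 0.375 from limma). Among the genes that were higher without passing, col-182 stood at 4.45, 4.51 and 5.39 with the methyl ester against 3.88, 3.31 and 3.73 (difference 1.15, standard error 0.30, adjusted p = 0.0839 from limma), with no overlap. The tryptophan-betaxanthin arrays are the same in this and the preceding comparison, so both sets of differences share them. In 6 of these genes the third methyl ester array was the highest of its group, most of all in col-44, with 3.85, 3.98 and 5.60, and in col-40, with 3.17, 3.15 and 4.63. The count was 0 when a control or a tryptophan-betaxanthin array was left out, whichever it was, and also without methyl ester array 1. It was 5 without the second methyl ester array, where 1625 of the tested probe sets passed, and 7 without the third, where 111 passed. Without the second or the third benzyl ester array it was 6 and 5, where 415 and 626 of the tested probe sets passed.

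The esters were not told apart by any col gene at the adjusted threshold in limma, where 0.149% of the tested probe sets passed, and the block left this count at 0, against 0.235%. At an unadjusted p under 0.05, 7 col genes were higher with the methyl ester (4.64%, against 1.9% of the tested probe sets) and 1, col-54, was lower (0.662%, against 2.43%). The methyl ester arrays of col-54 were 1.05 log2 units below the benzyl ester arrays (difference -1.05, 95% interval -1.68 to -0.42, adjusted p = 0.539 from limma), and the groups did not overlap. Of the 7 higher ones, col-61 had the smallest p, with 3.58, 3.78 and 3.96 with the methyl and 3.34, 3.11 and 3.13 with the benzyl ester (difference 0.58, 95% interval 0.29 to 0.87, adjusted p = 0.327 from limma). For col-185 the difference between the esters was 0.44, with a 95% interval of -0.52 to 1.40. The col genes had a median difference of 0.15 between the methyl and the benzyl ester, with 117 of 151 above 0 (77.5%, against 50.8% of the tested probe sets). Without the third trial, 3 col genes passed (1.99%, against 0.46% of the tested probe sets).

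Markers of the germ line and of gametes moved with the ester groups too. Over 7 oocyte markers, the mean log2 signal was 6.46 to 6.86 in the control and tryptophan-betaxanthin arrays and 4.51 to 6.11 in the ester arrays, and 1 of the 7 fell between the benzyl ester and tryptophan-betaxanthin. Over 7 germline markers the ranges were 6.45 to 6.75 and 5.10 to 6.26, and over 6 measured sperm markers 6.93 to 7.32 and 5.82 to 6.88, with none of these passing. The germline markers include gld-1, which is mutated in this strain and knocked down by the food. The part of all these markers in the differences of the col genes was not tested. The 9 hypodermis markers had a mean of 5.62 to 6.04 in the control and tryptophan-betaxanthin arrays and 5.63 to 6.47 in the ester arrays, with none passing between any of the groups.

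More col genes passed between the trials than between any pair of groups in the main models. These counts are not like for like, since the group comparisons were fitted without the trial. Over the tested probe sets, too, more passed between the trials than between any pair of groups (at most 3.09%). With the group in the model, 41 of 151 differed between the third trial and the first and second (27.2%, against 16.7% of the tested probe sets). Of these, 27 were higher in the third trial (17.9%, against 7.44%) and 14 were lower (9.27%, against 9.27%). All 41 moved in the same direction in the 3 compounds. They were selected on these same arrays, so this agreement is no separate support. The contrast rests on the 9 treated arrays, since the controls cover trials 1 and 2 only. Its p-values measure the spread left after group and trial are fitted, and not that from trial to trial.

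Among the genes higher in the third trial were 3 of the 4 measured genes of known larval stage, col-17, col-38 and col-63. In the larval gene col-17 the third-trial arrays, at 8.01, 8.37 and 8.11 for tryptophan-betaxanthin, the methyl and the benzyl ester, stood above all arrays of the first and second trials, which lay between 6.80 and 7.68. The difference was 0.74 (standard error 0.09, adjusted p = 0.00595 from limma). The L4 genes col-38 and col-63 were higher by 0.74 and 0.93 (standard errors 0.11 and 0.16, adjusted p of 0.00714 and 0.00907 from limma). The L4 gene col-49 had a difference of 0.26 that did not pass (adjusted p = 0.0641 from limma).

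The largest rise was that of col-34, where the third-trial arrays read 5.12, 5.26 and 5.32 against 3.38 to 4.88 in the others (difference 1.19, standard error 0.23, adjusted p = 0.0124 from limma). In col-157 they read 7.44, 7.91 and 7.40 against 6.06 to 7.36 (difference 0.89, standard error 0.16, adjusted p = 0.00988 from limma). In both genes the third trial lay above the remaining arrays without overlap.

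The adult gene col-19 was lower in the third trial, by 0.48 (log2 difference -0.48, standard error 0.10, adjusted p = 0.0175 from limma). The third-trial arrays of col-19 read 9.50, 8.53 and 8.85 for tryptophan-betaxanthin, the methyl and the benzyl ester, against 9.27 to 9.69 in the rest, so the ester arrays fell below the others and the tryptophan-betaxanthin array stayed among them. The other adult gene measured, col-62, had a difference of -0.27 (adjusted p = 0.392 from limma). The adult gene col-7 and the dauer gene col-6 had no single-gene probe set.

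The falls of col-143 and col-178 in the third trial exceeded its largest rise, and those of col-143, col-178 and col-101 were larger with the esters than with tryptophan-betaxanthin. For col-143 the first and second trials lay at 8.58 to 9.52, and the third at 8.27 with tryptophan-betaxanthin, 7.52 with the methyl and 6.44 with the benzyl ester (difference -1.67, standard error 0.31, adjusted p = 0.0112 from limma). For col-178 the first and second trials lay at 5.0 to 5.9, with the controls at 5.77 and 5.75. The third trial read 5.26, 4.11 and 3.37 (difference -1.28, standard error 0.26, adjusted p = 0.0136 from limma). The value of 5.26, with tryptophan-betaxanthin, lay within the range of the earlier trials. For col-101 the third trial had 3.49, 3.05 and 2.57 against 3.86 to 4.41 (difference -1.08, standard error 0.20, adjusted p = 0.0107 from limma). In all 3 genes the benzyl ester array of the third trial was the lowest of the 11. Over the 151 col genes, 0 fell by more than 1 log2 unit in the third trial of tryptophan-betaxanthin, 7 in that of the methyl ester and 15 in that of the benzyl ester, against 0.0972%, 3.33% and 3.92% of the tested probe sets. Rises of more than 1 log2 unit were seen in 4, 15 and 10, against 0.135%, 2.17% and 2.51% of the tested probe sets. With 1 array for each compound and trial, the difference in shift between compounds was not tested.

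**Figure D4:**
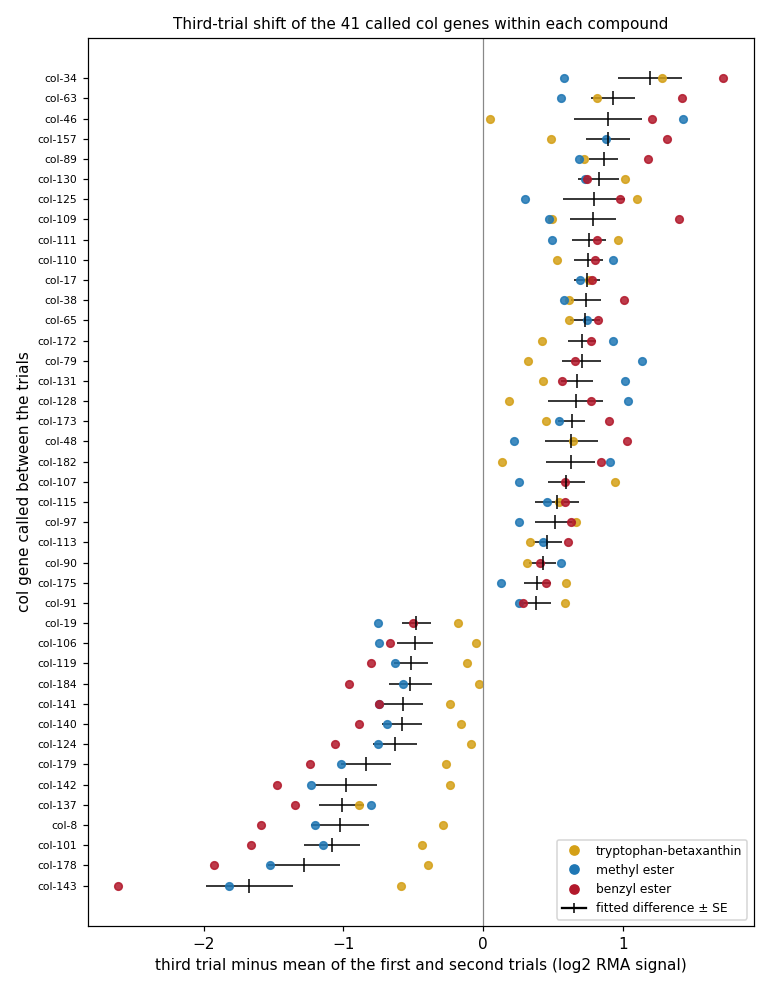
Log2 RMA signal of the third trial minus the mean of the first and second trials (horizontal axis) of the 41 col genes that passed between the trials (vertical axis), with a coloured point for each compound and a black line for the fitted difference ± standard error. All 41 genes, which were selected on these same arrays, have their 3 points on one side of 0, and the 14 lower genes end with col-143 at -1.67.

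Members of the moulting cycle outside the family were set beside these shifts. Of 21 measured cuticle collagen genes with other names, such as rol-6, sqt-3 and dpy-5, 19 rose and 0 fell in the third trial, with a median of 0.81, and of 14 measured moulting genes 9 rose and 0 fell, with a median of 0.89. Both medians compare with 0.14 for the col genes and 0.01 for the tested probe sets. The regulators rose in 7 of 12, among them the transcription factor gene blmp-1, by 0.76. Among the enzymes and other factors that process collagen, 1 of 12 rose (dpy-11, a thioredoxin-like protein gene, by 0.39) and 1 fell (phy-3, a prolyl 4-hydroxylase gene, with -1.01). The cuticlins rose in 2 of 11 and the 3 basement membrane collagens in 0.

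Against the control, the 21 named cuticle collagens had differences above 0 with each compound, where 51.3% to 52.8% of the tested probe sets did. Their medians were 0.59, 1.09 and 0.69 for tryptophan-betaxanthin, the methyl and the benzyl ester, though none passed in limma. The controls lack trial 3, in which most of these genes rose. In trial 1 their mean log2 signal was 6.003 in the control and 6.508, 6.855 and 6.166 with the compounds, in that order. In trial 2 it was 6.113 in the control and 6.516, 6.899 and 6.7 with the compounds. In trial 3, which has no control here, it was 6.971, 7.598 and 7.483. The part of trial 3 in the medians of these genes was not tested. Between the benzyl ester and tryptophan-betaxanthin their median was 0.03 and none passed, while the moulting kinase genes nekl-2 and nekl-3 rose by 1.21 and 0.64, the cuticlin gene cut-1 fell (difference -1.12) and the heterochronic gene lin-41 fell (difference -1.32). In the third trial, 3 of 7 oocyte, 5 of 6 sperm and 1 of 7 germline markers fell, and 4 of 9 hypodermis markers rose. Of the hypodermis markers, dpy-7, rol-6 and sqt-3 are also among the named cuticle collagens. The markers elt-1, elt-3, nhr-23 and nhr-25 are also among the regulators, so the counts of these lists share genes. Markers of other somatic tissues rose too, 2 of 4 of the pharynx, 2 of 5 of body wall muscle, 2 of 5 of neurons and 3 of 7 of the intestine. Another 2 of the intestine and 1 of 3 of the somatic gonad fell. Over the tested probe sets, 7.44% rose and 9.27% fell. The part of these markers in the shifts of the col genes was not tested, and trial, worm batch and age at harvest cannot be told apart here.

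The count of 41 depended on the ester arrays of the third trial. It was 9 without the methyl ester array and 4 without the benzyl ester array of that trial, and 27 without either control or without the second methyl ester array. The calls of col-143, col-157, col-178 and col-101 were lost without either of the 2 ester arrays of that trial, and those of col-34 and col-63 without the benzyl ester one.

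Some col genes of known product or place are outside these patterns. The col-12 gene, the brightest member, varied little, from 10.32 to 10.85 over the 11 arrays, yet its 6 ester arrays (10.32 to 10.54) all lay below the arrays of the other groups (10.62 to 10.85). The differences from tryptophan-betaxanthin were -0.31 for the methyl and -0.34 for the benzyl ester, and neither passed (adjusted p of 0.0925 and 0.0651 from limma). Its close relative col-13 read 8.13, 8.07 and 8.17 with tryptophan-betaxanthin, 7.98, 8.28 and 8.20 with the methyl ester and 7.61, 7.90 and 7.90 with the benzyl ester. There the methyl ester arrays lay above the benzyl ester arrays, with a difference of 0.35 that did not pass (adjusted p = 0.905 from limma). The gene of the transmembrane collagen col-99, which is not a cuticle protein, read 1.84 to 2.31 in all arrays, and col-144 read 1.74 to 2.59, both around the median signal of 2.28. No call was made for col-10, col-120 or col-144 in the 7 comparisons.

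**Figure D5:**
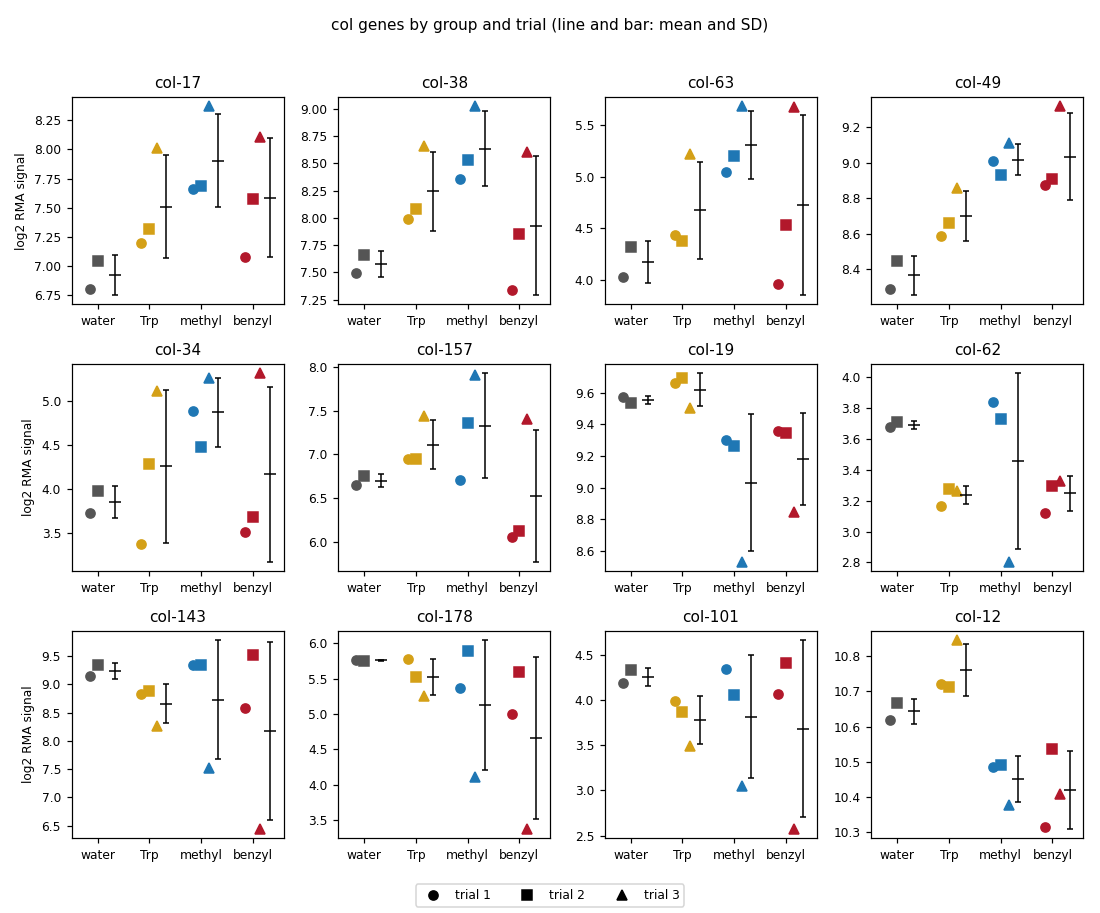
Log2 RMA signal (vertical axes, each with its own range) of 12 col genes by group (water control, tryptophan-betaxanthin as Trp, methyl ester, benzyl ester), 1 point for each array with the trial as its shape, and the group mean ± SD beside the points. The triangles of the third trial are the highest points of each compound for col-17, at 8.01 to 8.37, and the lowest for col-143, at 6.44 to 8.27.

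Some members lie next to each other in the genome. In the order of the RefSeq genes, 16 runs of adjacent col genes held 39 of the 151, and the longest held 5, from col-167 to col-171. Between the benzyl ester and tryptophan-betaxanthin, col-50 and col-51 were the 1 run in which both neighbours passed. Between the trials these were the runs of col-141 and col-142 and of col-178 and col-179, with both genes lower in each.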

How the data were processed

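The values of the 11 arrays were deposited by the authors as log2 signals per probe set, made by RMA (background correction, quantile normalisation and summary of the probes) in the Affymetrix Expression Console per the labels, whereas the paper's methods name Transcriptome Analysis Console. For software versions and the annotation release, the sources used here give nothing. Nothing was normalised further. Of 29317 probe sets, 2556 had no gene symbol and were left out, 26281 had 1 symbol and 480 several.

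Groups and trial numbers came from the sample titles. The paper describes a control of the third trial, not analysed here. A model of the 4 group means was fitted on all arrays with limma 3.58.1 (lmFit and eBayes) in R 4.3.3, with Benjamini-Hochberg adjustment over 26761 probe sets and a threshold of 0.05. The trials were compared in an additive model of group and trial. P-values of the group comparisons measure the spread between the trials, which the titles call independent. With the trial in the model, as a block or between the trials, they measure the spread left after group and trial are fitted. The script was tested on simulated data.

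Between the esters, same-numbered arrays deviated together from their group means in all 3 trials (r = 0.501, 0.235 and 0.742). The methyl ester and tryptophan-betaxanthin did so too (r = 0.214, 0.291 and 0.453). The benzyl ester and tryptophan-betaxanthin had 0.272, -0.0609 and 0.472, and the controls -0.0467 to 0.134. The block is therefore given beside the first pairs.

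The members, lists and tests were chosen with earlier results of these data known. Genes are named by the size of their difference (up to 3 per direction) if they pass the threshold, or an unadjusted p of 0.05 where fewer do, without overlap of the groups and with a higher mean of at least 2.28, by the 5 highest mean signals and 5 largest SDs, and by known stage. The remaining members past the adjusted threshold between the benzyl ester and tryptophan-betaxanthin, and second values of a gene already named, were added after their values were seen. The alternatives were the trial as a block, the groups compared alone, omission of the third trial, all probe sets, a robust prior with an intensity trend, cyclic loess, array weights, median scaling, brighter probe sets, an adjusted threshold of 0.1, treated or ester arrays alone for the trials, and each array left out.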

Additional observations from a re-analysis of the deposited data

How the results depend on the processing

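The median differences of the col genes moved by less than the SD of 0.103 between arrays in the alternatives run. They kept their sign except for that between the methyl ester and tryptophan-betaxanthin, which went from 0.04 to -0.01 after median scaling, and that between the benzyl ester and tryptophan-betaxanthin, which went from -0.06 to 0.03 without the first benzyl ester array. No named gene reversed. Over the named genes, 618 values kept their side of the threshold, 60 lost it and 50 gained it. The counts of col genes past the threshold moved more, and so did those over all tested probe sets. With array weights the latter went from 69 to 1235 for the methyl and from 151 to 1537 for the benzyl ester against the control. With the groups compared alone they went from 1 to 793 for tryptophan-betaxanthin and to 0 for both esters. Between the methyl ester and tryptophan-betaxanthin they went from 366 to 1768 at a threshold of 0.1. Against the control the counts of col genes became 9 for tryptophan-betaxanthin with the groups compared alone. For the methyl ester they became 1 at a threshold of 0.1, 8 with the trial as a block, 13 without the third trial, 19 with array weights and 1 among brighter probe sets. For the benzyl ester the counts of col genes became 3 at 0.1, 6 with the block, 0 with the groups alone, 21 without the third trial, 22 with array weights and 2 among brighter probe sets. Over the tested probe sets these settings gave 338, 343, 0, 1455, 1537 and 259 calls. Between the methyl ester and tryptophan-betaxanthin the counts of col genes became 14 at 0.1, 23 with the block, 0 with the groups alone, 19 without the third trial, 20 with array weights, 5 after cyclic loess and 11 among brighter probe sets. Over the tested probe sets these settings gave 1768, 2961, 55, 882, 1995, 318 and 1304 calls. Between the benzyl ester and tryptophan-betaxanthin the counts of col genes became 20 at 0.1, 28 with the block, 24 without the third trial, 20 with array weights and 18 among brighter probe sets. Where no count over the tested probe sets stands beside them, such gains cannot be read as particular to the col genes. Between the esters there were 3 without the third trial, and between the trials 27 with treated arrays alone. With single arrays left out, the counts ran from 0 to 1 and from 0 to 9 for the methyl and the benzyl ester against the control, from 0 to 7 and from 0 to 22 against tryptophan-betaxanthin, and from 4 to 55 between the trials. A lone control was assumed to vary like the other groups. The causes were not tested. After cyclic loess and after median scaling, all 11 calls between the benzyl ester and tryptophan-betaxanthin remained. Signals below the median of 2.28 may be close to background, whose level was not measured.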

Other observations

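The probe set shared by col-117 and col-3 could not be given to either gene. Its log2 signal was 6.82 and 6.66 in the controls, 6.78, 6.76 and 7.55 with tryptophan-betaxanthin, 7.18, 7.16 and 7.50 with the methyl ester and 6.25, 7.65 and 7.61 with the benzyl ester. The third-trial array was the highest of tryptophan-betaxanthin and of the methyl ester, and not of the benzyl ester.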
